A study of Mus musculus with 12 samples.

Results

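The pancreatic duct and progenitor genes considered here were 9 genes chosen by name: *Sox9*, *Onecut1*, *Krt19*, *Krt7*, *Cftr*, *Spp1*, *Muc1*, *Prom1* and *Tspan8*. All 9 were found among the 38924 gene identifiers of the RNA-seq count tables, and 8 of the 9 had enough reads to be tested together with 16645 genes in all. The tumors were pancreatic neuroendocrine tumors (PanNETs) of RIP1Tag2 mice on the C57Bl6 strain, a model in which the rat insulin promoter drives the SV40 large T antigen in the insulin-producing beta cells of the islets, so every tumor of all 3 groups carried the same transgene. Treatment began at an age of 15.5 weeks and lasted 4 days, with saline in the 4 control tumors, with sunitinib, which blocks the receptor tyrosine kinases of the VEGF and PDGF families, in 4 tumors, and with rapamycin, an mTOR inhibitor, plus sunitinib (R+S) in 4 tumors. Each library was made from RNA of bulk tumor tissue and is called a tumor here, with the number given in its label.

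In the exocrine pancreas, duct cells line the channels that carry the digestive enzymes of acinar cells to the gut, and they add a bicarbonate-rich fluid that depends on the chloride and bicarbonate channel CFTR. The duct lineage is held by transcription factors, among them SOX9 and ONECUT1, which are also needed in the multipotent progenitors of the embryonic pancreas, from which acinar, duct and endocrine cells all descend. Both *Sox9* and *Onecut1* are low in mature beta cells. The keratins KRT7 and KRT19, the apical mucin MUC1, the secreted phosphoprotein osteopontin (*Spp1*), the apical membrane protein PROM1 (CD133) and the tetraspanin TSPAN8 are commonly used to mark ductal epithelium. Osteopontin is also made by macrophages, and MUC1 and PROM1 are found on other epithelia.

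Reads on genes summed to between 31872342 and 44215054 per tumor, with a median of 38526164. The 95% intervals given for log2 fold changes come from the edgeR fit and include the spread between tumors. In bulk tumors, fewer cells of a type and less RNA per cell cannot be told apart. Sunitinib tumor 6 stood apart from its group. The summed level of 12 beta-cell genes was 4850 CPM (reads scaled to a common TMM-normalized library total) in it and 35500 to 81100 in the other 3 sunitinib tumors. *Pdx1* and *Nkx6-1* of that list and *Epcam*, which is not on it, were at 4.17, 15.9 and 10.8 CPM there against at least 263, 139 and 117 in the others. Not every gene of the list was that low. *Chga* was at 2850 CPM in tumor 6, 3760 to 4110 CPM in the other 3 and 2580 to 3330 CPM in controls. *Pcsk1* was at 144 CPM in tumor 6, 241 to 316 CPM in the other 3 and 194 to 378 CPM in controls. The labels carry a code per tumor whose first part is shared by all 4 control tumors, by 3 of the 4 sunitinib tumors (tumor 12 has another) and by 2 of the 4 R+S tumors, and no code is shared between groups, so that this code and treatment cannot be told apart. Nothing in the labels says that tumors of a group came from different mice, so the p-values measure the spread between these tumors, which may in part be within 1 animal.

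The promoters of *Muc1* and *Spp1*, the members with a RefSeq promoter that were called below, are shown beside that of *Krt7*, the most abundant member and one that was not called, so that the start regions of genes with different behavior in the same tumors can be read side by side. Sequences are the 250 bases before the RefSeq start site on GRCm38.p6, on the strand of the gene. Promoters of 7 of the 9 members were matched; *Sox9* and *Krt19* were not. Capitals mark the only words found among 3 kinds searched on both strands: ACAAAG or ACAATG for SOX factors, ATCAAT or ATCGAT for ONECUT factors and ACGTG for the hypoxia-inducible factors.
*Spp1* (chr5:104434861-104435110, + strand): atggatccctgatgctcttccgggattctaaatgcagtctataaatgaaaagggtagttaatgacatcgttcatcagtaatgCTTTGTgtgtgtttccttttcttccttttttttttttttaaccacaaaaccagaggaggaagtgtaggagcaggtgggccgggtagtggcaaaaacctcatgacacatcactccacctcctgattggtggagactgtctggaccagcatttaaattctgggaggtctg
*Muc1* (chr3:89228806-89229055, + strand): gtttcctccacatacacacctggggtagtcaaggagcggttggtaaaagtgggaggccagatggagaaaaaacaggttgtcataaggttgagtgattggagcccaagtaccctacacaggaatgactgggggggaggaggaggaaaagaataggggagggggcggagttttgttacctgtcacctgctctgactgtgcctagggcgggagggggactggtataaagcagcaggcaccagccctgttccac
*Krt7* (chr15:101412153-101412402, + strand): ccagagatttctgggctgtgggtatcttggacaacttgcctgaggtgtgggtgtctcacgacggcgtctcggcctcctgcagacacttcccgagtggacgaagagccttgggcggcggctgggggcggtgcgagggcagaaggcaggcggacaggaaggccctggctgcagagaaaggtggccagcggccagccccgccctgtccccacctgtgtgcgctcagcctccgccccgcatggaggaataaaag

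The *Spp1* promoter held a SOX word, read on the opposite strand as CTTTGT, 168 bases before the start site. A SOX word occurs in 25.2% of the 32851 promoters of the same length. The *Muc1* and *Krt7* promoters held none of the 3 kinds. A second RefSeq start of *Spp1*, not shown, had a SOX word 243 bases before it. Of the other promoters, that of *Tspan8* held a SOX word and an ONECUT word (7.4% of promoters) and that of *Onecut1* an HIF word (16.6% of promoters), which is found on both strands at overlapping positions. These matches describe letters only, and their use in the tumors was not tested.

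Levels were first set side by side per kb of exon, in TMM-normalized CPM per kb, which allows different genes to be compared. In control tumors *Krt7*, a type II keratin of simple epithelia, was far above the others with 59.8 ± 6.66 CPM per kb (SD, n = 4), which placed it at percentile 96.5 of the tested genes. *Prom1* followed with 10.7 ± 3.8 and *Spp1* with 6.48 ± 6.8 CPM per kb, and their ranges over the tumors overlapped (6.28 to 15.5 and 0.908 to 16.2). *Krt19*, the type I keratin most often taken as a duct marker, had 0.526 ± 0.658 CPM per kb, and its tumors overlapped those of *Muc1* (0.813 ± 0.34) and *Tspan8* (0.407 ± 0.321). *Sox9* was lower, with 0.0614 ± 0.0421 CPM per kb and at percentile 2.02, and *Cftr* and *Onecut1* came last with 0.0179 ± 0.0199 and 0.0078 ± 0.0156 CPM per kb. The genes of the list therefore did not share a level in control tumors: a keratin and an apical protein were abundant where the transcription factors and the channel were close to the limit of detection.

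**Figure D1:**
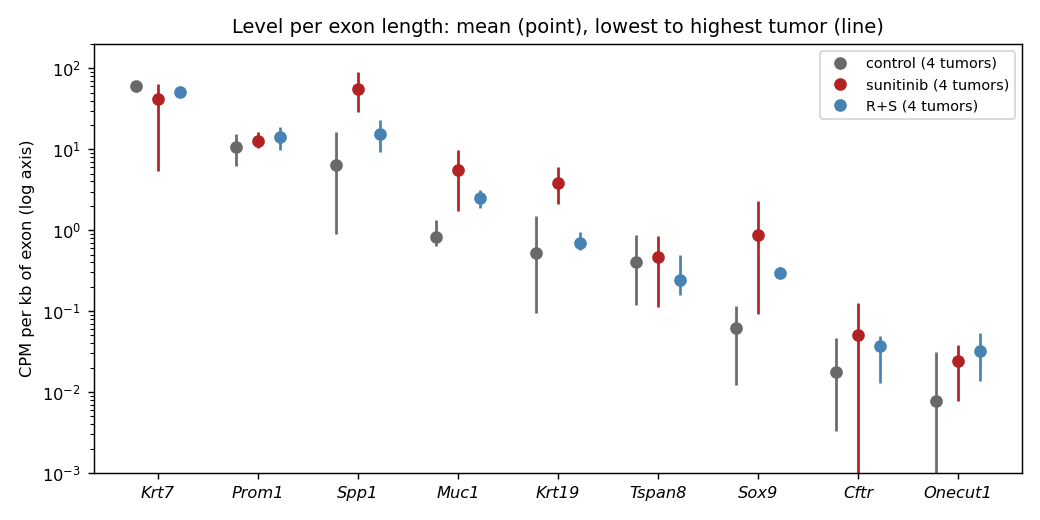
TMM-normalized CPM per kb of exon (log axis) of the 9 genes in the 4 tumors of each group; points are means and lines run from the lowest to the highest tumor, and a line that reaches the axis includes a tumor at 0. *Krt7* is highest in control and R+S tumors, *Spp1* has the highest mean in sunitinib tumors (55.7 CPM per kb), and *Onecut1* has the lowest mean in each group.

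In sunitinib tumors the mean of *Spp1*, 55.7 ± 30.2 CPM per kb (SD, n = 4), stood above that of *Krt7*, 41.9 ± 26.8, although their tumors overlapped. In R+S tumors *Krt7* was again first with 51.1 ± 4.95 CPM per kb and *Spp1* second with 15.4 ± 6.11, and these 2 genes did not overlap in that group. The order of *Sox9* and *Tspan8*, ranks 6 and 7 over all tumors, changed places when the longest transcript was used in place of all exon bases, and no other rank moved.

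The first question was what sunitinib monotherapy did to these genes. *Muc1*, *Sox9* and *Spp1* rose, by 6.87-fold, 14-fold and 8.57-fold, and no member fell. The 3 called members of 8 tested compare with 1.93% of all tested genes called higher, while 2.55% of all tested genes were called lower. The median log2 fold change was 2.11 over the 8 members and 0.03 over all tested genes. *Sox9* and *Krt19* reached the filter's level of 0.26 CPM in 2 of 4 controls and in every treated tumor, *Cftr* in 1 control, 2 sunitinib and 3 R+S tumors, and *Onecut1* in none, so counts and medians over the tested members describe them and support nothing.

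*Muc1*, an epithelial membrane mucin, had 3.1, 1.48, 1.5 and 1.55 CPM in control tumors 1 to 4 and 11.7, 22.7, 14 and 4.11 CPM in sunitinib tumors 5, 6, 8 and 12. Every sunitinib tumor was above every control, with tumor 12 nearest to them. The log2 fold change was 2.78 (SE 0.468, 95% interval 1.76 to 3.8, adjusted p = 0.00449 by edgeR).

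*Sox9*, the transcription factor of progenitors and ducts, had 22, 8, 2 and 10 reads in the control tumors, or 0.471, 0.212, 0.0507 and 0.282 CPM. In sunitinib tumors 5, 6, 8 and 12 it had 2.42, 9.51, 2.16 and 0.385 CPM. Tumor 12 lay below the highest control, so the groups overlapped, and tumor 6 was the highest by a wide margin. The log2 fold change was 3.81 (SE 0.847, 95% interval 1.96 to 5.66, adjusted p = 0.025 by edgeR). Without sunitinib tumor 6 it was 2.68 (adjusted p = 0.0317 by edgeR). *Sox9* missed the threshold when control tumor 2, 3 or 4 was left out (adjusted p = 0.0747 to 0.0792 by edgeR). It also missed it when only the 8 tumors compared were fitted (adjusted p = 0.107 by edgeR). The same held when treated tumors with 1 code were summed (adjusted p = 0.0654 by edgeR).

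*Spp1*, which encodes the secreted phosphoprotein osteopontin, had 26.8, 9.36, 1.5 and 5.07 CPM in control tumors 1 to 4 and 47.7, 148, 120 and 52 CPM in sunitinib tumors 5, 6, 8 and 12. All sunitinib tumors exceeded all controls, although the controls themselves spread widely. The log2 fold change was 3.10 (SE 0.735, 95% interval 1.49 to 4.71, adjusted p = 0.035 by edgeR). *Spp1* missed the threshold in 6 of the 12 fits that left out 1 tumor (adjusted p = 0.0521 to 0.112 by edgeR). Those were the fits without control 2 or 4, sunitinib 6 or 8 or R+S 4 or 5. Without control tumor 1 its log2 fold change was 4.11. It also missed the threshold when only the 8 tumors compared were fitted (adjusted p = 0.115 by edgeR). So it did with treated tumors of 1 code summed or with no filter on low counts (adjusted p = 0.0897 and 0.0635 by edgeR). A part of the *Spp1* transcript, 11.6% of its 50-base words, is shared with transcripts of other genes, the most with the overlapping same-strand gene *Gm42793*. Reads there can be lost as ambiguous. The summed level of 12 macrophage genes, a possible other source of osteopontin, was 636 to 911 CPM in control tumors and 321 to 998 CPM in sunitinib tumors, with 1 gene called higher and 2 lower by edgeR. Single genes of that list went both ways. *Gpnmb* had 3.86 to 22.2 CPM in control, 24.9 to 108 CPM in sunitinib and 8.74 to 20.5 CPM in R+S tumors. *Adgre1* had 20.1 to 30.8 CPM in control and 8.21 to 14.3 CPM in sunitinib tumors, and *Mrc1* 9.87 to 18.2 and 2.21 to 6.19 CPM. The part of macrophages in the *Spp1* level was not tested.

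*Krt19* had 2.76, 0.767, 0.178 and 0.197 CPM in control tumors 1 to 4 and 4.29, 9.34, 11.2 and 3.95 CPM in sunitinib tumors 5, 6, 8 and 12. The groups did not overlap, yet the difference missed the threshold (log2 fold change 2.87, SE 0.772, adjusted p = 0.0614 by edgeR). Control tumor 1 was the high one, and without it the log2 fold change was 4.23 and passed (adjusted p = 0.00399 by edgeR). DESeq2 also called *Krt19*, which brought its members called higher to 4, beside 4% of the genes it tested. In all, 3 members (*Krt19*, *Spp1* and *Muc1*) had every sunitinib tumor above every control, against 5.17% of all tested genes.

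The remaining members did not pass. *Krt7* had 421, 479, 421 and 364 CPM in control tumors and 269, 38.1, 454 and 419 CPM in sunitinib tumors 5, 6, 8 and 12. Tumor 6, where the summed beta-cell level was also low, was the lowest, and tumor 5 was also below every control. The log2 fold change of the group was -0.51 (95% interval -1.62 to 0.59), and without tumor 6 it was -0.15 (SE 0.17). *Prom1* ranged from 45.1 to 111 CPM in control tumors and from 75.2 to 117 CPM in sunitinib tumors (log2 fold change 0.26, 95% interval -0.32 to 0.84). *Tspan8* ranged from 0.203 to 1.48 CPM and from 0.193 to 1.44 CPM (log2 fold change 0.21, 95% interval -1.23 to 1.65). *Cftr*, the channel of ductal bicarbonate secretion, had 1 to 17 reads in control tumors and 0 to 35 reads in sunitinib tumors, and was not called (log2 fold change 1.44, 95% interval -0.62 to 3.5). *Onecut1* was not tested, with 6 reads in control tumor 1, none in the other 3 controls and 5, 3, 6 and 1 reads in sunitinib tumors 5, 6, 8 and 12. Of its 50-base words, 52.3% are shared with transcripts of other genes, the most with the overlapping same-strand lincRNA *Gm20649*. Its reads may therefore be undercounted to an unknown degree, since the annotation used for counting is not given.

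**Figure D2:**
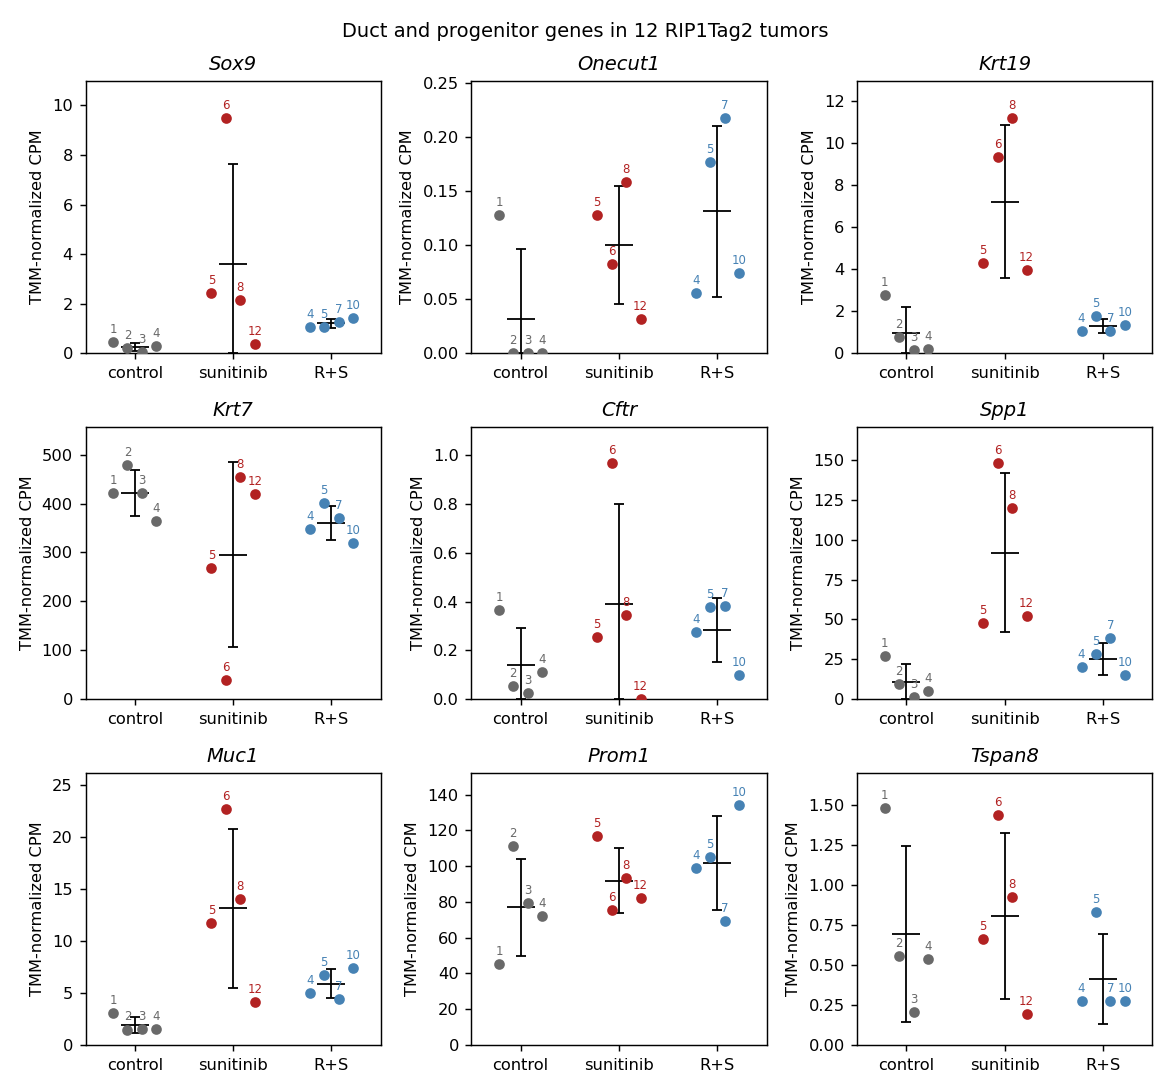
TMM-normalized CPM (linear axes starting at 0) of each gene in control, sunitinib and R+S tumors; points are tumors with their label number, and the bar and whiskers are mean ± SD of 4 tumors with the lower whisker stopped at 0. *Muc1*, *Spp1* and *Krt19* of all 4 sunitinib tumors lie above all controls, and sunitinib tumor 6 is the highest for *Sox9* and the lowest for *Krt7* (38.1 CPM).

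Acinar transcripts also differed between the groups. The summed level of 21 acinar genes was 41.6 to 133 CPM in control tumors. It was 28200, 43500, 35600 and 11900 CPM in sunitinib tumors 5, 6, 8 and 12, and 8510, 13600, 3270 and 18000 CPM in R+S tumors 4, 5, 7 and 10. A large part of the control sums was the listed gene *Bhlha15*, with 29.5 to 63.1 CPM. *Bhlha15* had 21.9 to 55.6 CPM in sunitinib and 25 to 54.2 CPM in R+S tumors. Of the 20 acinar genes tested, 19 were called higher in either treated group, none of the 21 was at 0 in all tumors and 1 was at 0 in all controls, and the most abundant, the protease precursor gene *Ctrb1*, had 0.397 to 18.1 CPM in controls and 2750 to 10800 CPM in sunitinib tumors. Sunitinib tumor 12, the lowest of its group in 6 of the 9 members, was also the lowest in acinar transcripts, and tumor 6, the highest in 5 of the 9, was the highest in them, whereas over all tested genes tumor 12 was the lowest of its group in 30.8% and tumor 6 the highest in 33.5%. Tumor 6 was also the lowest sunitinib tumor in 2 members, beside 32.9% of all tested genes. R+S tumor 10 had the most acinar transcripts of its group and was its highest in 3 members and its lowest in 3. R+S tumor 7 had the fewest and was likewise the highest in 3 members and the lowest in 3, with the most *Spp1* (38.2 CPM). Over all tested genes these shares were 29.5% and 30.5% for R+S tumor 10 and 15.6% and 17.6% for R+S tumor 7. Control tumor 1, the highest control in acinar transcripts, was the highest control in 7 of the 9 members and in 16 of 24 other duct genes, whereas it was the highest control in 33.4% of tested genes. The part of exocrine tissue in the members' changes was not tested beyond 1 fit: with the acinar score as a covariate, 0 members and 0 genes at all were called by edgeR (1 member and 797 genes at an unadjusted p under 0.05), and 94.7% of the variance of that score lay between sunitinib and control tumors, so acinar content and treatment cannot be told apart.

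**Figure D3:**
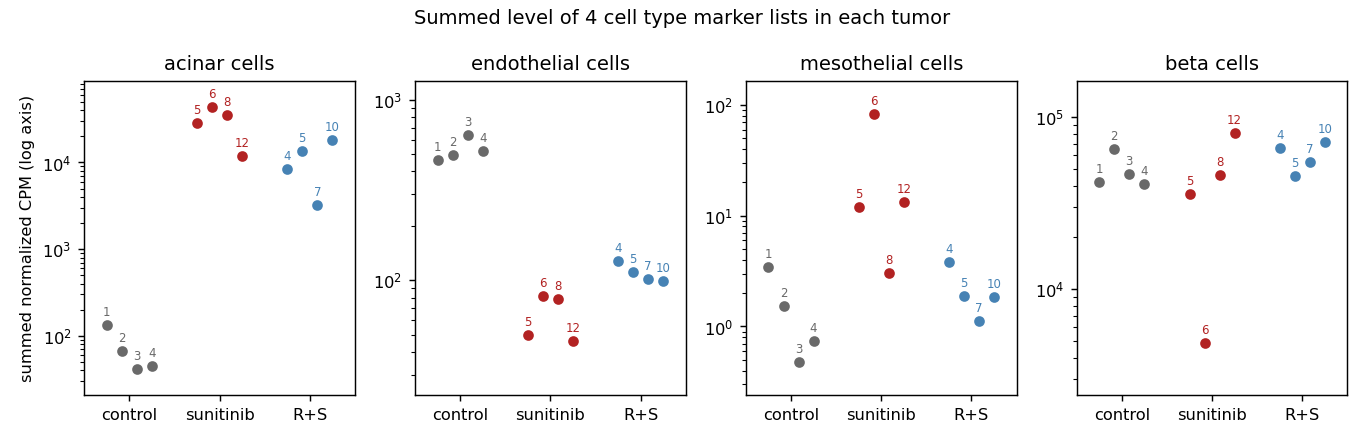
Summed TMM-normalized CPM (log axes) of the marker lists of acinar, endothelial, mesothelial and beta cells in each tumor, numbered as in the labels. Acinar sums of treated tumors lie at 3270 CPM or above and those of controls at 133 CPM or below, and sunitinib tumor 6 has the lowest beta-cell sum (4850 CPM). The acinar sums of controls include *Bhlha15* at 29.5 to 63.1 CPM.

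Other cell types moved as well. The summed level of 8 endothelial genes was 461 to 634 CPM in control tumors, 46.3 to 81.4 CPM in sunitinib tumors and 98.9 to 127 CPM in R+S tumors, with 7 of 8 called lower in either treated group and none at 0 in all controls. The *Plvap* transcript of fenestrated endothelium had 139 to 162 CPM in controls and 8.63 to 17.9 CPM in sunitinib tumors. The 8 mesothelial genes, which mark the lining of the organ surface, summed to 0.482 to 3.47 CPM in control tumors, 3.01 to 82.2 CPM in sunitinib tumors and 1.11 to 3.83 CPM in R+S tumors, with 2 of the 4 tested called higher in sunitinib tumors and 2 of the 8 at 0 in all controls. The highest sum, in sunitinib tumor 6, was nearly all *Gpm6a* (79.9 CPM). *Msln*, a defining mesothelial gene, was at 0 to 0.235 CPM in controls and 0.718 to 4.97 CPM in sunitinib tumors, with the lowest of these in tumor 6. Fibroblast genes (6 genes, 314 to 906, 681 to 964 and 406 to 502 CPM in control, sunitinib and R+S tumors) had no calls, and neither had beta-cell genes (12 genes, 41100 to 65200, 4850 to 81100 and 45300 to 71700 CPM), by edgeR. Macrophage genes summed to 430 to 638 CPM in R+S tumors, with 1 of 12 called lower against controls. In R+S versus sunitinib tumors, 2 of 12 macrophage genes and 1 of 20 tested acinar genes were called lower, beside 4.58% of all tested genes. There 5 of 8 endothelial genes were called higher, beside 2.63% of all tested genes. Intestinal epithelial genes (7 genes) summed to 5.29 to 11.8, 7.68 to 20.8 and 8.86 to 19.2 CPM, with 1 of 4 tested called higher in sunitinib tumors. The part of these cell types in the members' results was not tested.

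The second comparison asked what R+S treatment did relative to the same 4 control tumors. By edgeR 0 of the 8 members passed, while 1.55% and 2.61% of all tested genes were called higher and lower. At an unadjusted p under 0.05 there were 2 members (*Sox9* and *Muc1*), beside 20.1% of all tested genes, and DESeq2 called the same number higher, beside 3.75% of the genes it tested. The median log2 fold change was 0.69 over the members and 0.01 over all tested genes.

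*Muc1* had 5.02, 6.69, 4.41 and 7.35 CPM in R+S tumors 4, 5, 7 and 10, all above the highest control at 3.1 CPM. The log2 fold change was 1.62 (SE 0.451, 95% interval 0.63 to 2.6, adjusted p = 0.067 by edgeR). *Sox9* had 1.08, 1.06, 1.28 and 1.44 CPM, again all above the highest control at 0.471 CPM and closely spaced. The log2 fold change was 2.23 (SE 0.812, 95% interval 0.46 to 4.01, adjusted p = 0.151 by edgeR). These 2 members were the ones whose R+S tumors did not overlap the controls, against 11.6% of all tested genes with every R+S tumor higher. Both passed when sunitinib tumor 6, which is in neither group but enters the shared estimate of the spread, was left out (adjusted p = 0.0417 for *Sox9* and 0.0269 for *Muc1* by edgeR), *Muc1* also without sunitinib tumor 12 (adjusted p = 0.017 by edgeR), and both when only the 8 tumors compared were fitted (adjusted p = 0.0185 and 0.0118 by edgeR).

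*Spp1* had 20, 28.1, 38.2 and 15.2 CPM in R+S tumors 4, 5, 7 and 10, and control tumor 1 lay within this range at 26.8 CPM. Its log2 fold change was 1.24 (SE 0.692, 95% interval -0.27 to 2.76, adjusted p = 0.337 by edgeR). *Krt19* had 1.05, 1.77, 1.06 and 1.34 CPM, below control tumor 1 and above the other 3 controls (log2 fold change 0.41, 95% interval -1.2 to 2.01). *Krt7* ranged from 319 to 402 CPM and *Prom1* from 69.5 to 134 CPM in R+S tumors, with log2 fold changes of -0.23 (95% interval -1.33 to 0.87) and 0.41 (95% interval -0.17 to 0.98). *Tspan8* had 0.277, 0.833, 0.272 and 0.272 CPM (log2 fold change -0.74, 95% interval -2.22 to 0.73), so that 3 of its R+S tumors were nearly equal. *Cftr* had 4 to 15 reads (log2 fold change 0.97, 95% interval -1.11 to 3.05) and *Onecut1* 2, 7, 8 and 3 reads.

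**Figure D4:**
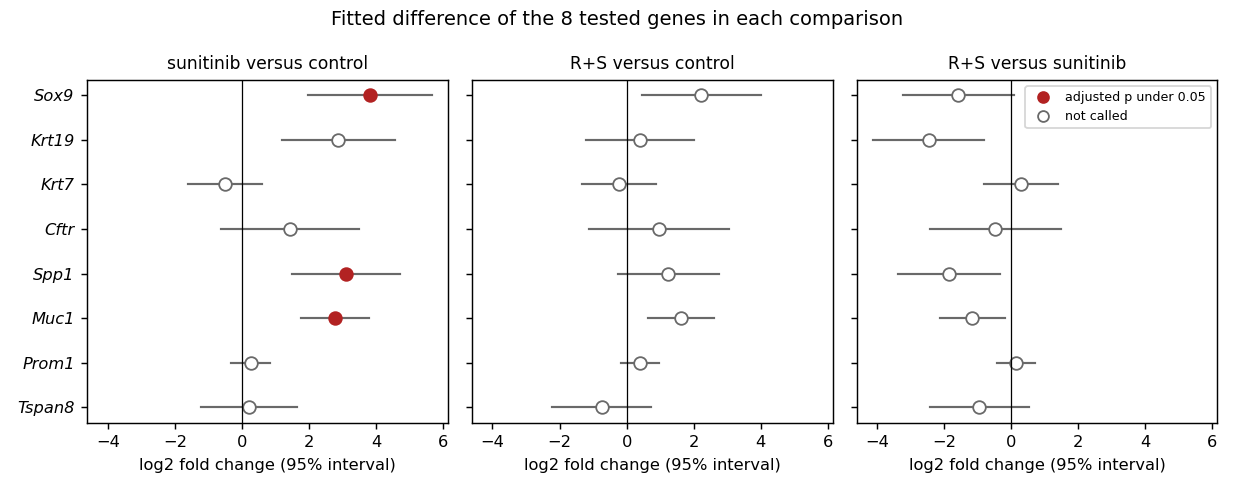
Fitted log2 fold changes of the 8 tested genes in the 3 comparisons by edgeR; lines are 95% intervals and filled points have an adjusted p under 0.05. The filled points are *Sox9*, *Spp1* and *Muc1* in sunitinib versus control, at 3.81, 3.10 and 2.78.

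The last comparison asked what rapamycin added to sunitinib changed. By edgeR 0 of the 8 members passed, while 2.63% and 4.58% of all tested genes were called higher and lower. At an unadjusted p under 0.05 there were 3 members (*Krt19*, *Spp1* and *Muc1*), beside 30.4% of all tested genes, and DESeq2 called these 3 lower, beside 10.3% of the genes it tested. The median log2 fold change was -1.06 over the members and -0.02 over all tested genes. For *Krt19*, the 3.95 to 11.2 CPM of sunitinib tumors lay above the 1.05 to 1.77 CPM of R+S tumors without overlap (log2 fold change -2.46, SE 0.758, 95% interval -4.12 to -0.8, adjusted p = 0.0657 by edgeR). For *Spp1*, the 47.7 to 148 CPM of sunitinib tumors lay above the 15.2 to 38.2 CPM of R+S tumors (log2 fold change -1.86, SE 0.699, adjusted p = 0.105 by edgeR). These 2 genes were the members without overlap, against 9.73% of all tested genes lower in every R+S tumor.

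*Muc1* overlapped through sunitinib tumor 12 (log2 fold change -1.16, SE 0.442, adjusted p = 0.107 by edgeR), and so did *Sox9* (log2 fold change -1.57, 95% interval -3.23 to 0.08, adjusted p = 0.182 by edgeR). Without sunitinib tumor 6 the log2 fold change of *Sox9* was -0.45 and that of *Muc1* -0.76. *Krt19* passed when control tumor 1 or sunitinib tumor 5 was left out (adjusted p = 0.0385 and 0.0482 by edgeR) and *Muc1* when sunitinib tumor 12 was (adjusted p = 0.0483 by edgeR). *Krt7*, *Prom1*, *Cftr* and *Tspan8* had log2 fold changes of 0.29, 0.15, -0.47 and -0.95, each with a 95% interval that includes 0. The summed acinar level of R+S tumors was also below that of sunitinib tumors 5, 6 and 8 in every case, while R+S tumors 5 and 10 (13600 and 18000 CPM) were above sunitinib tumor 12 (11900 CPM), and its part in these differences was not tested beyond the covariate fit, in which 48% of the variance of the acinar score lay between these groups. There the log2 fold changes were -1.38 for *Krt19*, -0.93 for *Spp1*, -0.46 for *Muc1* and -0.41 for *Sox9*, with adjusted p = 0.187 to 0.806 by edgeR.

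The members were also compared by their pattern over the 12 tumors, as the root mean square (RMS) difference of z-scored log2 CPM, where 0 would be the same pattern and the median over the genes compared is 1.35 to 1.36. *Sox9* and *Muc1* were each other's nearest members (RMS difference 0.318), and so were *Krt19* and *Spp1* (0.317). *Cftr* was nearest to *Sox9* (0.626) and *Tspan8* to *Cftr* (0.73), whereas *Krt7* and *Prom1* were far from all others, with 1.31 and 1.18 to their nearest members. Among 12624 other genes of at least an average log2 CPM of 1, the patterns most like that of *Muc1* were those of *Hpn* (0.225), *Col7a1* (0.243), *Habp2* (0.294), *Slc38a3* (0.324) and *Hsd17b13* (0.335). The patterns most like that of *Sox9* were those of *Muc1* itself, *Habp2* (0.33), *Ccdc141* (0.351), *Rab27b* (0.373) and *Bmp7* (0.389). Those most like that of *Spp1* were *Krt19* (0.317), *Wwc1* (0.326), *Clu* (0.336), *Myrf* (0.402) and *Lcn2* (0.403). All tumors share the treatment groups, the libraries and the acinar content described above, so these values are a description only.

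**Figure D5:**
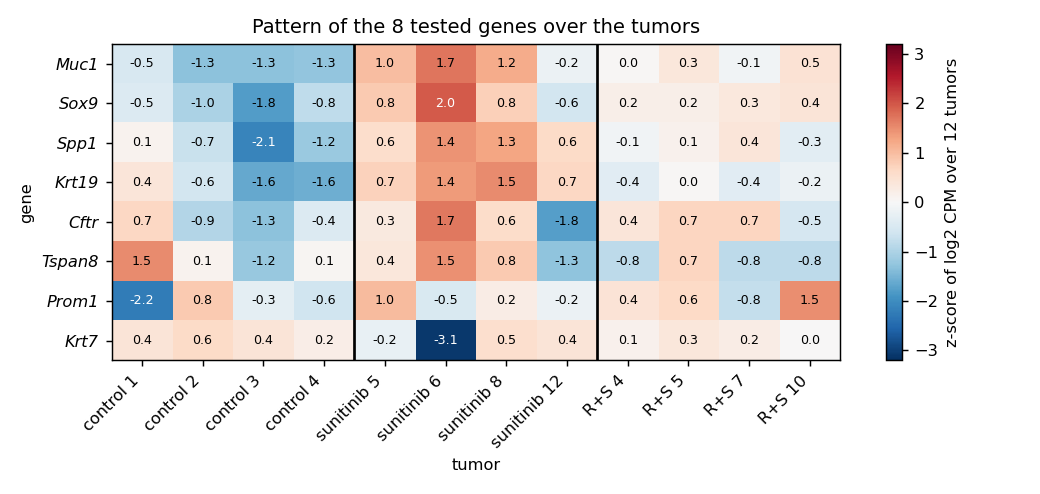
Z-scores of log2 CPM over the 12 tumors for the 8 tested genes (rows), with the tumors in columns and black lines between groups. *Muc1*, *Sox9*, *Spp1* and *Krt19* are below their mean in control tumors 2, 3 and 4 and above it in sunitinib tumors 5, 6 and 8, with control tumor 1 above it for *Krt19* and *Spp1*, and *Krt7* is near its mean everywhere except in sunitinib tumor 6 (-3.09).

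The other genes of the duct were taken from a list of 24, of which 22 were tested. In sunitinib versus control 2 rose and none fell, in R+S versus control 2 rose and none fell, and in R+S versus sunitinib none rose and 1 fell, by edgeR. Over all tested genes, 1.93%, 1.55% and 2.63% were called higher and 2.55%, 2.61% and 4.58% lower. The medians of the log2 fold changes of these duct genes were 0.66, 0.4 and -0.29, beside 0.03, 0.01 and -0.02 over all tested genes. *Tff2*, a trefoil peptide of mucus-secreting epithelia, had 0.791, 0.185, 0.0254 and 0.169 CPM in control tumors, 75.7, 111, 84.4 and 37.3 CPM in sunitinib tumors 5, 6, 8 and 12 and 23.6, 39.6, 9.57 and 52.7 CPM in R+S tumors 4, 5, 7 and 10. The treated and control tumors were thus widely apart, and within each treated group the order of the tumors was that of the acinar sums. Its log2 fold changes were 7.96 (SE 0.833, adjusted p = 0.000164 by edgeR) and 6.66 (SE 0.797, adjusted p = 0.000732 by edgeR), and it passed in all 12 fits with 1 tumor left out in both comparisons, with 9.23 and 7.94 when control tumor 1 was left out. With the acinar score as a covariate its log2 fold changes were -0.49 and -0.61.

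*Clu*, which encodes the secreted chaperone clusterin, had 72.1, 53.7, 13.7 and 18.5 CPM in control tumors and 94.9, 695, 419 and 93.2 CPM in sunitinib tumors 5, 6, 8 and 12. It rose (log2 fold change 3.04, SE 0.728, adjusted p = 0.0367 by edgeR), but passed in 4 of the 12 fits with 1 tumor left out (those without control 1, sunitinib 5 or 12 or R+S 10), and without sunitinib tumor 6 its log2 fold change was 2.36 (adjusted p = 0.0631 by edgeR). *Ambp*, the precursor of alpha-1-microglobulin and bikunin, had 14.5 to 16.7 CPM in control tumors and 22.1, 54.1, 58 and 31.7 CPM in R+S tumors. It rose in R+S tumors (log2 fold change 1.42, SE 0.347, adjusted p = 0.0433 by edgeR), and also passed in 4 of 12 such fits (those without sunitinib 5, 6 or 12 or R+S 4). *Cd24a*, a surface sialoglycoprotein of immature epithelia, had 140, 807, 90.7 and 199 CPM in sunitinib tumors and 26.3 to 63.9 CPM in R+S tumors, with 53.6 to 127 CPM in controls. It was lower in R+S than in sunitinib tumors (log2 fold change -2.75, SE 0.647, adjusted p = 0.0343 by edgeR), and without sunitinib tumor 6 the log2 fold change was -1.64 (adjusted p = 0.0332 by edgeR). It missed the threshold without control 3 or any 1 of the R+S tumors.

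Of 19 other progenitor genes 17 were tested. In sunitinib versus control 2 rose, in R+S versus control 1 rose, and in R+S versus sunitinib 1 rose, with none lower in any of them, by edgeR. The medians of their log2 fold changes were 0.38, 0.3 and -0.01. The shares and medians over all tested genes are those given above for the duct genes. *Ptf1a*, a transcription factor of early pancreatic progenitors that adult acinar cells keep, had no read in any control tumor, 113, 167, 193 and 44 reads in sunitinib tumors 5, 6, 8 and 12, and 31, 55, 23 and 108 reads in R+S tumors 4, 5, 7 and 10. Against a floor of 3 counts per control library it was at least 46-fold higher in sunitinib tumors (adjusted p = 0.000613 by edgeR) and at least 18.2-fold higher in R+S tumors (adjusted p = 0.00242 by edgeR). With the acinar score as a covariate it was not called, with fitted log2 fold changes of 1.87 and 1.77 (adjusted p = 0.999 and 1 by edgeR). *Gata4*, a transcription factor of foregut endoderm and acinar cells, had 0.212 to 1.05 CPM in control tumors and 14.9, 4.59, 3.85 and 0.963 CPM in sunitinib tumors 5, 6, 8 and 12, so tumor 12 overlapped the controls. It rose (log2 fold change 3.23, SE 0.789, adjusted p = 0.0402 by edgeR) but passed in 3 of 12 fits with 1 tumor left out (those without sunitinib 6, 8 or 12), and without sunitinib tumor 5 its log2 fold change was 2.29. *Glis3*, a zinc finger factor of ducts and beta cells, had 52.2, 10.2, 39 and 22.4 CPM in sunitinib tumors and 81.5, 137, 91.6 and 116 CPM in R+S tumors, without overlap. It was higher in R+S than in sunitinib tumors (log2 fold change 1.79, SE 0.403, adjusted p = 0.0313 by edgeR), and missed the threshold without control 3, sunitinib 12 or any 1 of the R+S tumors. *Pdx1* and *Nkx6-1*, which serve both progenitors and beta cells and stood in both lists, were abundant in controls (313 to 392 and 141 to 247 CPM) and not called in any comparison, while *Neurog3*, the switch of endocrine progenitors, stayed at or below 0.952 CPM in all tumors.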

How the data were processed

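RNA-seq of 12 tumors, 4 per group, was analysed. The authors deposited 1 table per tumor of raw read counts per Ensembl gene, not normalized. Per the labels the libraries were Illumina TruSeq Stranded mRNA, and the submitters' processing notes name cutadapt 1.2.1, TopHat2 2.0.9, HTSeq 0.5.4p3 and GRCm38, without roles. The annotation release and the strand setting of the counting are not given in the sources used here, so reads of a gene and an antisense partner may not be told apart. *Prom1* shares 5.1% of its 50-base words with transcripts of other genes, the most with *Gm16401*. Total lines that name no gene (11.1 to 18.8% of reads on no feature, 0.694 to 0.953% ambiguous) were left out. Symbols and coordinates were from GENCODE M21 (37607 of 38924 identifiers matched), promoters from RefSeq on GRCm38.p6.

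The members and gene lists were chosen with earlier results of these data known. Counts were filtered (filterByExpr, minimum count 10, minimum total 15), TMM-normalized and tested in 1 fit of all tumors with edgeR 4.0.16 (quasi-likelihood test, robust; R 4.3.3, limma 3.58.1), with Benjamini-Hochberg adjustment over 16645 genes per contrast, a threshold of 0.05 and SEs derived from F. A prior count of 2 entered log2 CPM. The fit was also run on simulated counts with the largest gene spreads capped, which do not represent genes of high spread or tumors that stand apart. No pair of tumors agreed within sampling noise. Named genes were all 9 members, listed duct and progenitor genes called in any contrast, abundant markers and, for the 3 members of smallest p, the 5 genes of nearest pattern. *Neurog3*, *Pdx1*, *Nkx6-1*, *Epcam*, *Msln*, *Chga*, *Pcsk1*, *Gpnmb*, *Adgre1*, *Mrc1* and *Bhlha15* were named after their values were seen. A listed gene is not reported here. Alternatives included DESeq2 1.42.0, other normalizations and filters, an acinar covariate and each tumor left out.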

Additional observations from a re-analysis of the deposited data

Results flagged for a closer look

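In 27 sets of 4 tumors (9 genes in 3 groups), 3 held 1 tumor far from the other 3 by Dixon's criterion. Its rate of about 1 in 20 holds for independent normal values. It does not apply to low counts or to 9 genes read in the same tumors. *Muc1* stood at 3.1 CPM in control tumor 1 and at 1.48 to 1.55 CPM in the other controls. *Onecut1* stood at 0.128 CPM, or 6 reads, in control tumor 1 and had no read in the other controls, where any read in 1 tumor alone would be flagged. *Tspan8* stood at 0.833 CPM in R+S tumor 5 and at 0.272 to 0.277 CPM in the other R+S tumors.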

How the results depend on the processing

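*Cftr* had at most 35 and *Onecut1* at most 8 reads in any tumor. No paired analysis was possible because the groups compared share at most 1 tumor number. Results are given in the order sunitinib versus control, R+S versus control and R+S versus sunitinib, where 3, 0 and 0 members and 745, 693 and 1200 genes were called. Leaving out 1 tumor at a time gave 1 to 4, 0 to 2 and 0 to 1 members and 440 to 902, 292 to 1627 and 0 to 2861 genes. DESeq2 called 4, 2 and 3 members and 1513, 1659 and 2972 genes. Only the 8 tumors compared gave 1, 2 and 0 members and 380, 2557 and 3 genes, with a spread estimated from fewer tumors. Summing treated tumors with 1 code (the 4 controls were kept apart) left 1 member in sunitinib versus control, while 752 genes were called there. An adjusted p under 0.01 also left 1 member in that comparison, and left 360, 245 and 0 genes. Requiring 10 counts in every tumor left 408 genes in the first comparison, and no filter left 501 in the last. The acinar covariate left 0 members in every comparison and 0, 0 and 304 genes. The cause of these shifts was not tested.

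With the acinar covariate, log2 fold changes against controls changed sign for *Sox9* (-2.04 with sunitinib and -2.46 with R+S), *Krt19* (-3.33 and -4.71), *Krt7* (0.49 and 0.65), *Cftr* (-5.14 and -4.21), *Spp1* (-1.26 and -2.19), *Muc1* (-1.52 and -1.97) and *Tff2* (-0.49 and -0.61), and with sunitinib alone for *Tspan8* (-6.02), *Clu* (-0.51) and *Gata4* (-2.14). In R+S versus sunitinib it turned *Cftr* to 0.93 and *Tspan8* to 0.1. Summing treated tumors with 1 code turned *Tspan8* to -0.18 in sunitinib versus control. With 1 tumor left out, *Tspan8* ranged from -0.22 to 0.9 there, and in R+S versus sunitinib *Krt7* ranged from -0.08 to 0.57, *Cftr* from -0.87 to 0.46 and *Prom1* from -0.01 to 0.3. None of these values passed the threshold. *Muc1* in sunitinib versus control passed in all 12 fits with 1 tumor left out (2.38 to 3.12), and in 7 of 8 other fits, with the acinar covariate as the exception. Library-size normalization kept all 27 group means within 1 SD.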
